A study of Mus musculus with 12 samples.

Results

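The genes described here encode the ligands and receptors of axon guidance. Their probes were chosen by name, as those whose gene name on the array starts with Epha, Ephb, Efna, Efnb, Sema, Plxn, Robo or Unc5, or is Nrp, Slit or Ntn followed by a number. This gave 123 of 41174 probes and 68 of 27670 gene symbols, covering 14 Eph receptors, 8 ephrins, 20 semaphorins, 8 plexins, 2 neuropilins, 3 Slits, 4 Robo receptors, 3 netrins and 6 genes of Unc5 names. Unc50 and Unc5cl fall under the rule by spelling and are not netrin receptors. The gene that the array calls Ntn2l is given by its current name, Ntn3. Of the 68 genes, 63 had a signal well above background on at least 1 array and are the members counted below. Epha6, Epha8, Ntn1, Robo3 and Unc5cl were not well above background on any array, and 52 genes were so on all 12.

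Total RNA of neural progenitor cells from 129/Ola mice was measured on 12 one-colour expression arrays. Of the 12 cultures, 10 each carried a retroviral insert for 1 transcription factor (Crebzf, Esx1, Etv6, Gatad2b, Hmga2, Nfxl1, Pax6, Pdx1, Sox11 or Zfp451), and the controls were 1 culture given EGFP and 1 labelled mock. In the cultures given an insert the vector was pMXs-IRESNeo, G418 was added at 24 h, about 95% of cells expressed the insert and harvest was at 72 h. For the mock culture the sources used here give no infection, G418 or harvest. The series title speaks of interfering and non-interfering factors without saying in the labels which is which, so the comparison made is that of each factor with EGFP and mock. Every group held 1 array, so no value has an error of its own, and no test between groups could be made.

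Arrays are named by their labels, which the overexpressed genes do not bear out on their own arrays. Of the 10 overexpressed genes, 1 (Pax6) was at least 2-fold above both controls on its own array, and its level was higher still on Esx1, Crebzf, Pdx1, Sox11 and Zfp451. The differences from the control mean ran from -0.83 to 1.33, and Pdx1 was not well above background on any array. Whether these probes lie inside the inserted reading frames was not analysed here. The arrays labelled Pax6 and Hmga2 stood on the slide of EGFP and mock, Gatad2b, Etv6, Esx1 and Nfxl1 on a second slide, and Crebzf, Pdx1, Sox11 and Zfp451 on another. The 75th percentile of signal was 826 to 1027 units, 62.5% to 69.1% of probes passed the scanner software's well-above-background flag, and 0 spots were saturated.

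Growing axons are steered by secreted and membrane-bound cues that attract or repel the growth cone. Slit proteins bind Robo receptors and mostly repel, netrins attract through Dcc and repel through Unc5 receptors, and ephrins bind Eph receptor tyrosine kinases between touching cells. Semaphorins act through plexins, with neuropilins as co-receptors for the secreted class. The same molecules guide migrating neural progenitors and neurons and set boundaries between groups of cells in the developing brain.

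Promoter sequence of 6 members is shown because these genes had among the largest differences of their families, with both directions included. Each is the stretch of 250 bases before the gene's start, 5′ to 3′ on the gene's strand, from RefSeq on GRCm38.p6. Capitals mark the GC box GGGCGG and the TATA box TATAAA, searched on both strands with overlapping matches counted, and the remaining letters are in lower case.
Slit2: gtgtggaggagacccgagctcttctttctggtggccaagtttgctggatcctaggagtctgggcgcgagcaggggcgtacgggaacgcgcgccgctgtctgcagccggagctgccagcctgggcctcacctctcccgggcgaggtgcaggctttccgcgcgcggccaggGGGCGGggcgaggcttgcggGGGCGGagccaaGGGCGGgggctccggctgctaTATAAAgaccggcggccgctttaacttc
Robo1: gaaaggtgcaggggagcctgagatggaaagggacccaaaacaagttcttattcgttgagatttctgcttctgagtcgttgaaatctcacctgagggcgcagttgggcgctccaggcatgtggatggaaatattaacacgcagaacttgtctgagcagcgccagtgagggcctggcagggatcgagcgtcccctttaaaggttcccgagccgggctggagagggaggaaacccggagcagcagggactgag
Unc5c: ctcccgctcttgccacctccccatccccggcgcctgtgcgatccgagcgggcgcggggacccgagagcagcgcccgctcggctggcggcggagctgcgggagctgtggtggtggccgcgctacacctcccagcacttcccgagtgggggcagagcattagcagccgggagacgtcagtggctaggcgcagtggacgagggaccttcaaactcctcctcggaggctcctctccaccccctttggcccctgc
Unc5a: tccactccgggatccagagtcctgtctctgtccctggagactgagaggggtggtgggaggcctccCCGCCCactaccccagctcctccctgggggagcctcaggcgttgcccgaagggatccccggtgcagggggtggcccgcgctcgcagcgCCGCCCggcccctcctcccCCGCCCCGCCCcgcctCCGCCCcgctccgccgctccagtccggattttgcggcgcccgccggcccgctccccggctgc
Epha3: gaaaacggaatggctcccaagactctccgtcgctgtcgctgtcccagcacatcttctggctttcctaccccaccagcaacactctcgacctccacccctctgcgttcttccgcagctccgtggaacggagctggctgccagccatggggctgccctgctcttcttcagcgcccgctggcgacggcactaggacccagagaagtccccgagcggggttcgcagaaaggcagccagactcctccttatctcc
Sema7a: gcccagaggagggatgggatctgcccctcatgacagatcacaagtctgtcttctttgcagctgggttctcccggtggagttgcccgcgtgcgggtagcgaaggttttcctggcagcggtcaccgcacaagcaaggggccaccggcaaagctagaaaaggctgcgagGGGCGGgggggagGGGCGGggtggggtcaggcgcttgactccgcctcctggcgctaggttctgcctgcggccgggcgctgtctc
Slit2 is at chr5:47982905-47983154 on the plus strand, Robo1 at chr16:72662899-72663148 plus, Unc5c at chr3:141465314-141465563 plus, Unc5a at chr13:54949161-54949410 plus, Epha3 at chr16:63864176-63864425 minus and Sema7a at chr9:57939862-57940111 plus. The Slit2 stretch holds 3 GC boxes, 1 TATA box and 25 CpG sites. The Unc5a stretch holds 5 GC boxes and 25 CpG sites, and that of Sema7a 2 GC boxes and 17 CpG sites. Robo1, Unc5c and Epha3 have neither motif in this window, with 11, 23 and 16 CpG sites. The table held a promoter for 59 of the 68 genes, 75 promoters in all, of which 72.0% held a GC box and 2.67% a TATA box, with a median of 15 CpG sites. Among 21263 promoters of protein-coding genes the shares were 42.6% and 11.6% and the median was 10, and among all 32851 promoters they were 32.7% and 12.4% with a median of 6. Unc5a and Sema7a, lower on 6 factor arrays, and Slit2, higher on the same arrays, all hold GC boxes here. Robo1, Unc5c and Epha3, also higher on those arrays, do not.

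Levels are log2 of the processed signal minus the log2 75th percentile of the same array, so a level of 0 is that percentile, and a level of one gene cannot be set against that of another. A difference is the level on a factor array minus the mean of the EGFP and mock levels. To be called higher, a gene had to exceed EGFP and also mock by at least 2-fold and be well above background on the factor's array. To be called lower, it had to lie at least 2-fold under each control, with both controls well above background. Each gene is represented by its probe of highest mean level, to which its calls, levels and folds refer. Folds are relative to the control mean and are written as at least a value where a control was not well above background. The same EGFP and mock arrays served all 10 factors.

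Many guidance genes were higher, and few lower, on 6 arrays, those labelled Crebzf, Esx1, Pax6, Pdx1, Sox11 and Zfp451. They included the ligand Slit2 with the receptors Robo1 and Robo2, the netrin receptor Unc5c, the receptors Epha3 and Epha7 with ephrin B3, and 8 semaphorins, each on at least 5 of the 6. Sema7a and Unc5a were lower on the same 6 arrays. Hmga2 and Nfxl1 had no called member, and Gatad2b and Etv6 had 1 and 2 called members.

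On the Pax6 array 19 of 63 members were higher (30.2%, where 10.7% of all 20968 genes tested were) and 3 lower (4.76%, against 6.44% of all genes). On the Esx1 array 19 were higher (30.2%, against 10.4%) and 4 lower (6.35%, against 7.39%). On the Crebzf array the counts were 21 higher (33.3%, against 9.85%) and 4 lower (6.35%, against 6.25%), and on the Pdx1 array 21 higher (33.3%, against 9.89%) and 3 lower (4.76%, against 6.59%). Sox11 gave 20 higher (31.7%, against 9.73%) and 4 lower (6.35%, against 6.92%), and Zfp451 gave 20 higher (31.7%, against 9.59%) and 3 lower (4.76%, against 6.3%). The share of higher members was about 3 times that of all genes on each of these arrays, and the share of lower members lay near it. On Gatad2b 1 member was higher (1.59%, against 0.644%) and on Etv6 2 were (3.17%, against 1.05%), with 0 lower on each, where 1.02% and 0.83% of all genes were lower. On Hmga2 and Nfxl1 0 members were higher, with 0.434% and 0.3% of all genes, and 0 were lower, with 0.558% and 1.2% of all genes. Member differences ran from -0.63 to 0.53 on Hmga2 and from -0.71 to 0.29 on Nfxl1.

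**Figure D1:**
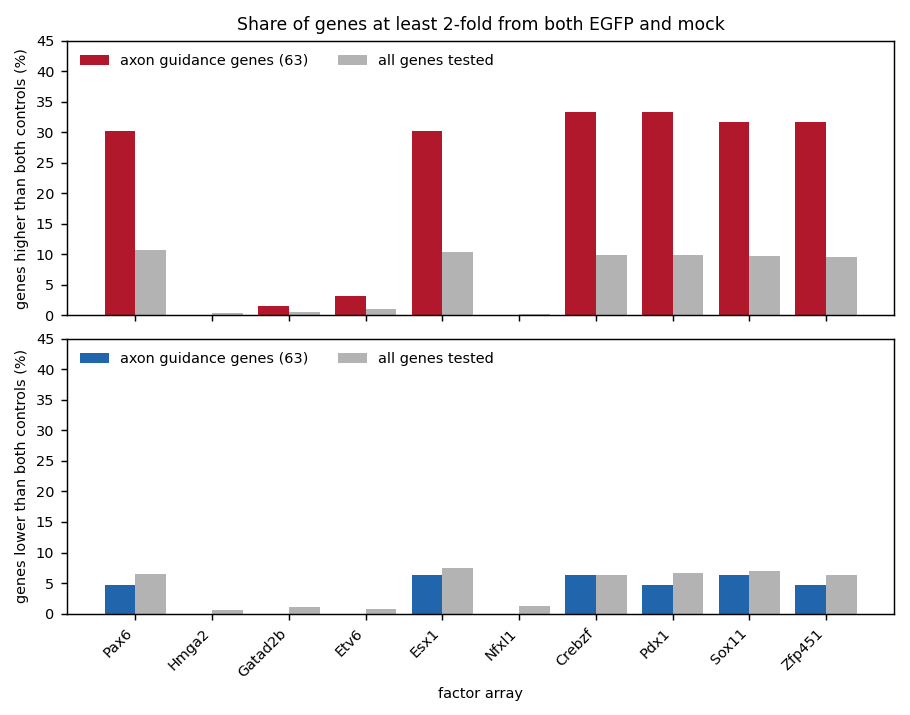
Percentage of genes called higher (upper panel) and lower (lower panel) than both EGFP and mock on each factor array, for the 63 guidance genes (coloured) and for all genes tested (grey); each bar is 1 array against the same controls. The upper bars of the guidance genes stand at 30.2% to 33.3% on Pax6, Esx1, Crebzf, Pdx1, Sox11 and Zfp451 and at 0% to 3.17% on Hmga2, Gatad2b, Etv6 and Nfxl1.

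The median difference of the members was 0.36 on Pax6, 0.26 on Esx1, 0.26 on Crebzf, 0.36 on Pdx1, 0.28 on Sox11 and 0.35 on Zfp451, while the median of all genes tested was -0.08, -0.2, -0.08, -0.2, -0.2 and -0.09 on those arrays. On the remaining factor arrays the members' median was between -0.05 and 0.17. Some members passed the filter only through the arrays on which they were high, so the 52 that were well above background on all 12 arrays were also counted alone. Of these, 15 (28.8%) were higher on at least 5 factor arrays, against 8.6% of all such genes, and 3 (5.77%) lower, against 5.11%.

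Across arrays, 19 members were higher on at least 5 factor arrays (30.2%, against 8.54% of all genes tested) and 3 were lower on at least 5 (4.76%, against 4.51%). Those 19 were Efnb3, Epha1, Epha3, Epha5, Epha7, Ntn3, Plxna3, Robo1, Robo2, Sema3a, Sema3b, Sema3c, Sema3d, Sema3f, Sema4f, Sema4g, Sema6a, Slit2 and Unc5c, and the 3 lower were Sema5b, Sema7a and Unc5a. All of the calls of these genes fell on Pax6, Esx1, Crebzf, Pdx1, Sox11 and Zfp451, with Sema6a also called on Etv6. On every one of those 6 arrays 17 were higher and 2 lower, the exceptions being Epha1 (not Esx1), Sema3c (not Pdx1) and Sema5b (not Pax6). A further 34 members were never called by their representing probe, 5 were higher on 1 to 4 arrays (8.34% of all genes were), 2 were lower on 1 to 4 (8.86%), and 0 were called in both directions. No member differed at least 2-fold between EGFP and mock, where 1.36% of all genes tested did, and the largest such difference among members was 0.68.

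**Figure D2:**
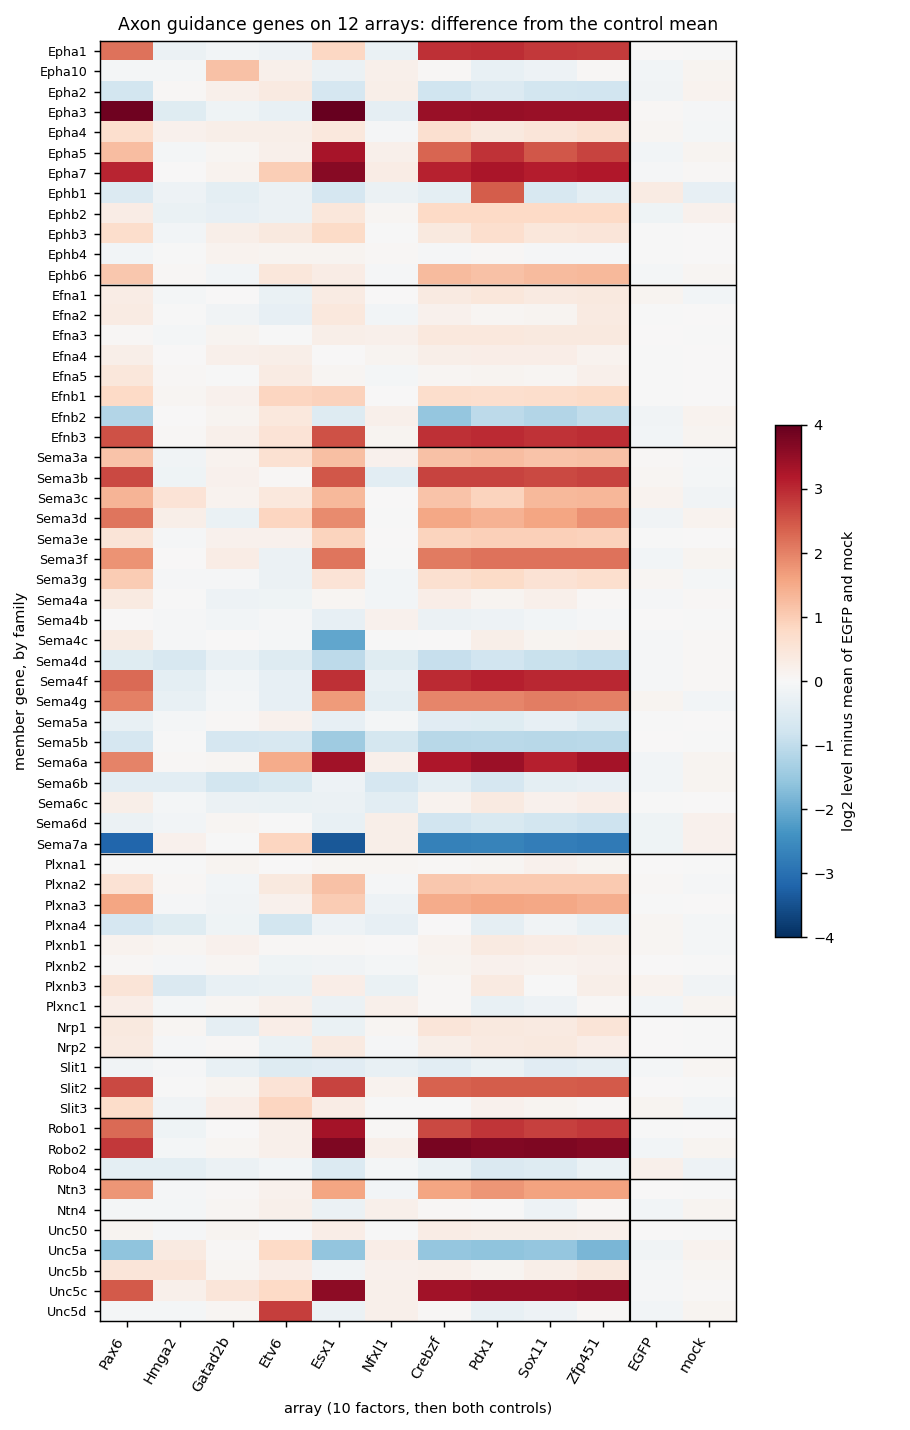
Differences from the mean of EGFP and mock (log2, colour) for the 63 guidance genes, called or not, by family down the page. The factor arrays run across, followed by EGFP and mock. In the rows of called genes Pax6, Esx1, Crebzf, Pdx1, Sox11 and Zfp451 mostly share a colour. On Hmga2, Gatad2b, Etv6 and Nfxl1 only 3 cells are called, Epha10 on Gatad2b and Sema6a and Unc5d on Etv6.

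The 4 arrays of 1 slide, Crebzf, Pdx1, Sox11 and Zfp451, were close to each other: for the 17 higher and 2 lower members called on all 6 arrays named above, 19 in all, the spread of their levels had a median of 0.14 and was at most 0.57. Slide and factor cannot be told apart for these 4 arrays taken alone. The Pax6 array, on the controls' own slide, was more than 1 outside their range for 2 of the 19 genes, Epha5 (1.11 below) and Sema6a (1.14 below). The Esx1 array was at most 0.57 outside it, for Sema7a. On its own slide, the Esx1 array was at least 2-fold above each of Gatad2b, Etv6 and Nfxl1 for 15 of its 19 higher members and at least 2-fold below each for 3 of its 4 lower members. The members that did not reach 2-fold within that slide were Plxna2, Plxna3, Sema3a, Sema3c and Sema5b. Over all 63 members the within-slide comparison, chosen after seeing the data, gave 15 higher (23.8%, against 10.2% of all genes) and 3 lower (4.76%, against 5.52%).

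Other cell types' markers moved on the same 6 arrays, on each of which 9.59% to 10.7% of all genes tested were higher and 6.25% to 7.39% lower. The fibroblast list had 5 to 7 of its 10 measured genes higher on Pax6, Esx1, Crebzf, Pdx1, Sox11 and Zfp451, and its summed linear level, in units of each array's 75th percentile, was 233 to 249 there, 99.3 to 111 on Hmga2, Gatad2b, Etv6 and Nfxl1, and 110 on EGFP and 103 on mock. Col1a1, Dcn, Lox, Postn and Thy1 were higher on all 6. The astrocyte list had 3 to 4 of 8 genes higher on those 6 arrays. It summed to 15.0 to 17.8 there, to 4.83 to 5.54 on the 4 arrays named after them, and to 5.03 on EGFP and 4.99 on mock. Apoe, S100b and Sparcl1 were higher on all 6, and Aldh1l1 on Pax6, Crebzf, Sox11 and Zfp451. Gja1 and Slc1a2 were not called, Aqp4 was called higher on Hmga2 alone, and Gfap was well above background on the EGFP array only. The neuron list had 4 to 5 of 10 genes higher on the 6 arrays, summing to 1.8 to 2.09, against 1.07 to 1.2 on the 4 and 1.14 on EGFP and 1.15 on mock; Stmn2, Snap25 and Syt1 were higher on all 6, Elavl4 was lower on Pax6 (-1.16), and Dcx and Elavl3 were well above background on EGFP only. The endothelial list had 5 of 8 genes measured, with none higher and Cldn5 lower on Esx1 and Pdx1, by at least 2.1-fold. It summed to 0.0783 to 0.097 on the factor arrays, 0.074 on EGFP and 0.0803 on mock. Pecam1, Cdh5 and Tie1 were not well above background anywhere. The oligodendrocyte list (8 of 9 genes measured) summed to 3.33 to 4.2 on the 6 arrays, 2.28 to 2.63 on the 4, 2.72 on EGFP and 2.66 on mock. Pdgfra and Cspg4 were higher on at least 5 arrays and Olig2 on Crebzf. Sox10 was lower on Crebzf and Zfp451, by 2.18-fold to 2.33-fold. The microglia list (5 of 7 measured, Aif1 higher on at least 5 arrays) summed to 0.154 to 0.253, 0.22 on EGFP and 0.147 on mock, and the neural crest list (6 measured, none called on 5 arrays) to 1.38 to 2.53, 1.37 on EGFP and 1.44 on mock. Of the 9 neural progenitor markers all were measured. Vim, Sox2, Nes, Pax6, Prom1, Msi1 and Slc1a3 were well above background on every array, Hes5 on 10 arrays and Fabp7 on 5. The list summed to 85.2 to 127 on the factor arrays, 103 on EGFP and 99.5 on mock. Nes was lower on Pax6, Esx1, Crebzf, Sox11 and Zfp451, by 2.14-fold to 2.85-fold, and the Pax6 gene was higher on all 6, by 2.52-fold to 3.41-fold. Slc1a3 was called on the Pax6 array only, higher by 2.57-fold. Its level was 2.74 there and 2.11 to 2.41 on the rest of the 6, against 1.45 on EGFP and 1.31 on mock. Fabp7 was called on Crebzf only, higher by at least 2.67-fold. Its level was -5.25 there and -6.15 to -5.6 on Esx1, Pdx1, Sox11 and Zfp451. Msi1 was called on Zfp451 only, lower by 2.15-fold. Its level was -2.16 there and -2.03 to -1.93 on Esx1, Crebzf, Pdx1 and Sox11, against -1.10 on EGFP and -1.01 on mock. Vim, Sox2, Prom1 and Hes5 were not called. Each sum is weighted towards the brightest genes of its list. The part of these markers in the guidance genes' differences was not tested. In RNA of whole cultures, fewer cells of a type and less RNA per cell cannot be told apart.

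Slit2, a secreted cue that repels axons through Robo receptors, was higher on 6 factor arrays. Slit2 stood at 2.41 on Pax6, 2.46 on Esx1, 2.13 on Crebzf, 2.17 on Pdx1, 2.18 on Sox11 and 2.22 on Zfp451. Slit2 was at -0.25 on Hmga2, -0.12 on Gatad2b, 0.31 on Etv6 and -0.11 on Nfxl1, against -0.21 on EGFP and -0.26 on mock. The 6 higher levels did not overlap the other 6, and the fold over the control mean was 5.15-fold to 6.47-fold. The probe lies at chr5:47631141-47631200 on mm7, the build of the files. Slit1 and Slit3, the other 2 Slits, were never called, although Slit3 reached a difference of 0.72 on Pax6 and 0.86 on Etv6.

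Robo1, a Slit receptor of the immunoglobulin superfamily, was higher on the same 6 arrays. Robo1 stood at -0.29 on Pax6, 0.77 on Esx1, 0.07 on Crebzf, 0.31 on Pdx1, 0.17 on Sox11 and 0.28 on Zfp451. Robo1 was at -2.72 on Hmga2, -2.53 on Gatad2b, -2.36 on Etv6 and -2.50 on Nfxl1, against -2.58 on EGFP and -2.54 on mock. Esx1 had the highest level and Pax6 the lowest of the 6, none of which overlapped the rest, and folds were 4.8-fold to 10.1-fold. Its probe lies at chr16:73042586-73042645 on mm7. Robo2, another Slit receptor, was well above background on these 6 arrays only, at -3.84 on Pax6, -2.95 on Esx1, -2.86 on Crebzf, -2.98 on Pdx1, -2.94 on Sox11 and -3.01 on Zfp451. All remaining arrays lay at their floor, so that the folds were at least 7.1-fold to at least 14.0-fold. Of 5 other Robo2 probes, 1 was higher on 6 arrays, 1 on 5 and 1 on 3, and 2 on none; on Pax6 only the first of these was higher, at a difference of 1.68. Robo4, known from endothelial cells, was well above background on 1 array and was not called, and Robo3, which modulates Slit responses at the midline, was not measured above background.

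Among netrin receptors, Unc5c was higher and Unc5a lower. Unc5c, which mediates repulsion from netrin, stood at -1.74 on Pax6, -0.61 on Esx1, -0.83 on Crebzf, -0.72 on Pdx1, -0.74 on Sox11 and -0.66 on Zfp451. Unc5c was at -3.97 on Hmga2, -3.70 on Gatad2b, -3.39 on Etv6 and -3.98 on Nfxl1, against -4.22 on EGFP and -4.14 on mock. The 2 sets of levels did not overlap, and folds were 5.45-fold to 11.9-fold; the probe lies at chr3:141728020-141728079 on mm7. Unc5a, of the same receptor family, stood at -5.67 on Pax6, -5.65 on Esx1, -5.62 on Crebzf, -5.69 on Pdx1, -5.62 on Sox11 and -5.89 on Zfp451. Unc5a was at -3.70 on Hmga2, -4.02 on Gatad2b, -3.28 on Etv6 and -3.80 on Nfxl1, against -4.21 on EGFP and -3.93 on mock. The first 6 levels lay below all others, 2.91-fold to 3.52-fold under the control mean. With a normexp background correction the differences of Unc5a shrank to between -0.71 and -0.62 and it was called on no array. The Unc5a probe lies at chr13:54088271-54088330 on mm7.

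Unc5b, the remaining measured netrin receptor of this family besides Unc5d, kept within 3.82 to 4.46 on the 12 arrays and was not called. Unc5d was well above background on Etv6 only, at -3.91, at least 6.77-fold above the control mean. A second Unc5d probe was not well above background on any array, Etv6 included. Unc50 kept within 3.59 to 3.94. Of the netrins, Ntn3, a secreted relative of netrin-1, was higher on 6 arrays. Ntn3 stood at -0.02 on Pax6, -0.22 on Esx1, -0.21 on Crebzf, -0.03 on Pdx1, -0.19 on Sox11 and -0.17 on Zfp451. Ntn3 was at -1.84 on Hmga2, -1.73 on Gatad2b, -1.63 on Etv6 and -1.90 on Nfxl1, against -1.77 on EGFP and -1.81 on mock. The folds were 2.97-fold to 3.43-fold, with no overlap between the higher levels and the rest. Ntn4 was well above background on 1 array and was not called.

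**Figure D3:**
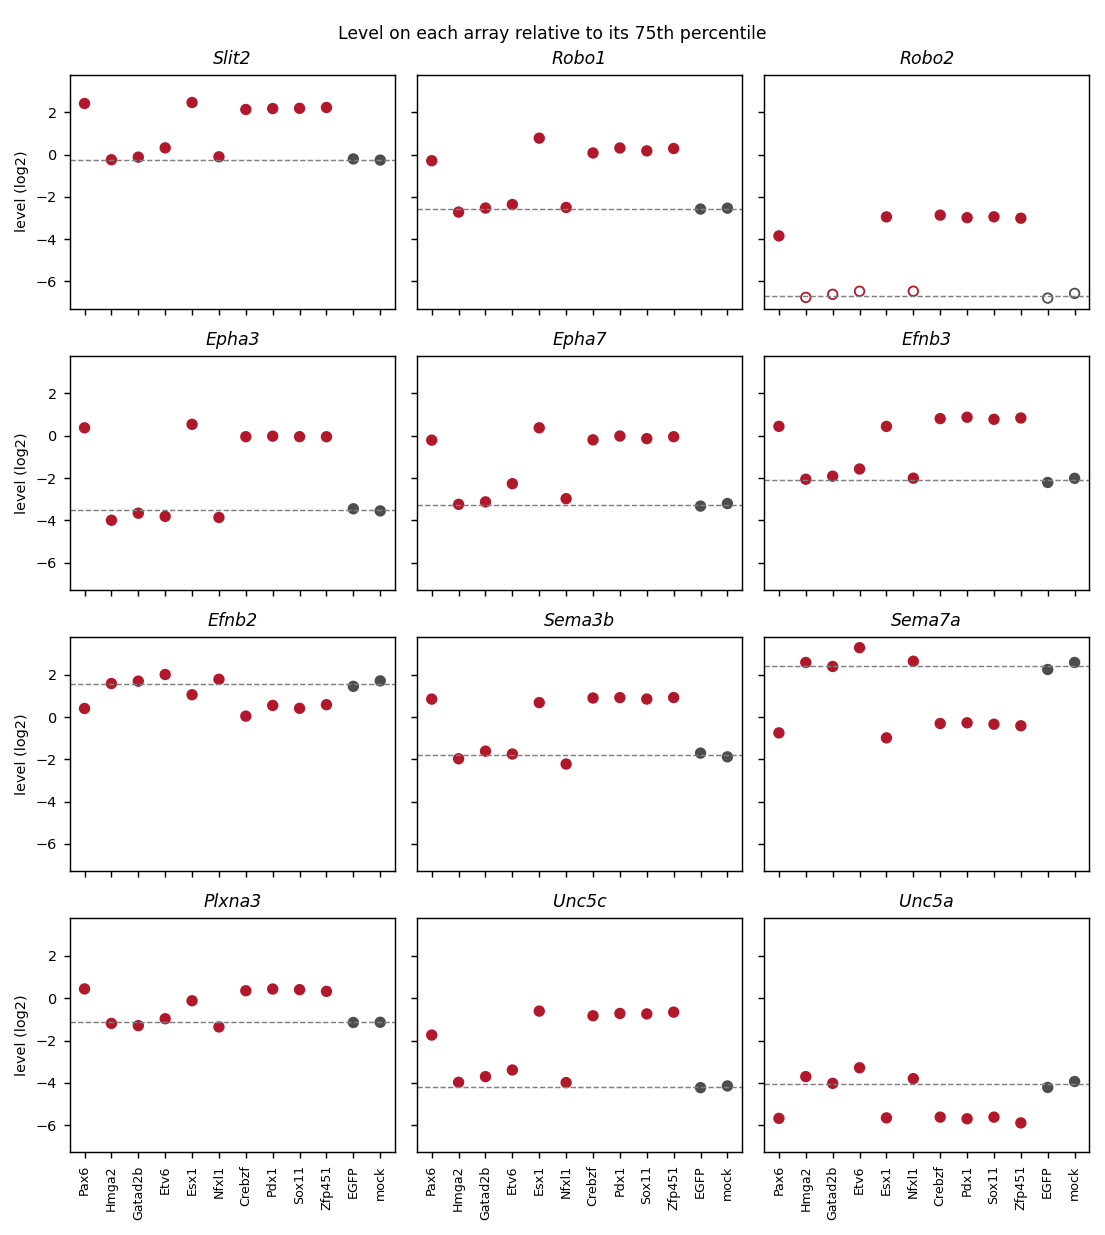
Levels (log2 relative to each array's 75th percentile, vertical axis) of 12 guidance genes on the 10 factor arrays (red), EGFP and mock (dark grey), with 1 point for each array, open where not well above background, and a dashed line at the control mean. For Slit2, Robo1, Unc5c and Epha3 the points of Pax6, Esx1, Crebzf, Pdx1, Sox11 and Zfp451 lie above all others, and for Sema7a and Unc5a below them.

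Ephrin B3 and 4 Eph receptors were higher on at least 5 arrays, where 8.54% of all genes tested were. Efnb3, a transmembrane ephrin known as a midline barrier to corticospinal axons, stood at 0.45 on Pax6, 0.44 on Esx1, 0.81 on Crebzf, 0.88 on Pdx1, 0.78 on Sox11 and 0.84 on Zfp451. Efnb3 was at -2.05 on Hmga2, -1.91 on Gatad2b, -1.57 on Etv6 and -2.00 on Nfxl1, against -2.21 on EGFP and -2.01 on mock. Crebzf, Pdx1, Sox11 and Zfp451 were above Pax6 and Esx1, all 6 were above the rest, and folds were 5.86-fold to 7.91-fold. The probe lies at chr11:69635983-69636042 on mm7.

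Epha3, a receptor tyrosine kinase that binds ephrins of the A class, had the widest range of any Eph receptor, 4.53. Epha3 stood at 0.38 on Pax6, 0.54 on Esx1, -0.04 on Crebzf, -0.02 on Pdx1, -0.04 on Sox11 and -0.05 on Zfp451. Epha3 was at -3.99 on Hmga2, -3.66 on Gatad2b, -3.81 on Etv6 and -3.86 on Nfxl1, against -3.45 on EGFP and -3.55 on mock. The sets did not overlap, the Epha3 levels of the other 4 factors were below both controls, and folds were 11-fold to 16.5-fold. The probe lies at chr16:63493624-63493683 on mm7, and its other probes were called the same way. Epha7, a receptor with roles in cortical maps and progenitor survival, stood at -0.21 on Pax6, 0.38 on Esx1, -0.19 on Crebzf, -0.01 on Pdx1, -0.13 on Sox11 and -0.04 on Zfp451. Epha7 was at -3.24 on Hmga2, -3.12 on Gatad2b, -2.26 on Etv6 and -2.97 on Nfxl1, against -3.32 on EGFP and -3.20 on mock. The 6 levels were again separate from the rest, with Etv6 the highest array below them, and folds over the control mean were 8.32-fold to 12.5-fold; the probe lies at chr4:29082495-29082554 on mm7.

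Epha1, the first Eph receptor described, was called on all 6 of these arrays except Esx1. Epha1 stood at -1.59 on Pax6, -2.95 on Esx1, -0.84 on Crebzf, -0.82 on Pdx1, -0.93 on Sox11 and -0.97 on Zfp451. Epha1 was at -4.0 on Hmga2, -3.88 on Gatad2b, -3.98 on Etv6 and -4.03 on Nfxl1, against -3.76 on EGFP and -3.77 on mock. Esx1 was above the controls by less than 2-fold, and the 5 called arrays differed by 4.52-fold to 7.69-fold. Epha5 was dim. Epha5 stood at -5.45 on Pax6, -3.38 on Esx1, -4.34 on Crebzf, -3.77 on Pdx1, -4.19 on Sox11 and -3.97 on Zfp451, and was not well above background on any other array, EGFP and mock included, which gave at least 2.33-fold on Pax6 to at least 9.77-fold on Esx1. A second Epha5 probe was called on no array, at differences of -0.5 to 0, so the call rests on 1 of the probes, and it did not hold on 5 arrays after a normexp correction.

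Ephb6, an Eph receptor without kinase activity, was higher on the slide of Crebzf, Pdx1, Sox11 and Zfp451 only. Ephb6 stood at -0.51 on Pax6, -1.28 on Esx1, -0.32 on Crebzf, -0.40 on Pdx1, -0.29 on Sox11 and -0.26 on Zfp451. Ephb6 was at -1.53 on Hmga2, -1.68 on Gatad2b, -1.13 on Etv6 and -1.63 on Nfxl1, against -1.66 on EGFP and -1.49 on mock. The called folds were 2.25-fold to 2.48-fold, and the Pax6 array, at a difference of 1.07, fell short of the call against mock. Efnb2, a transmembrane ephrin known from arterial endothelium, was lower on Pax6, Crebzf and Sox11. Efnb2 stood at 0.40 on Pax6, 1.05 on Esx1, 0.04 on Crebzf, 0.55 on Pdx1, 0.41 on Sox11 and 0.58 on Zfp451. Efnb2 was at 1.58 on Hmga2, 1.70 on Gatad2b, 2.01 on Etv6 and 1.78 on Nfxl1, against 1.45 on EGFP and 1.71 on mock. The called folds were 2.25-fold to 2.9-fold, and a second Efnb2 probe was lower on all of Pax6, Esx1, Crebzf, Pdx1, Sox11 and Zfp451, at -1.28, -1.41, -1.77, -1.3, -1.81 and -1.33.

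Ephrins A1 to A5 and ephrin B1 were not called, with differences of -0.32 to 0.93; the highest was Efnb1 on Esx1. Epha2, Epha4, Ephb2, Ephb3 and Ephb4 were not called either and lay between -0.81 and 0.81. Ephb1 was specific to Pdx1 (0.238% of all genes were specific to that array), at -3.81, at least 5.33-fold above the control mean and 2.08 above EGFP on the log2 scale. Epha10 was higher on Gatad2b, by at least 2.23-fold, and was well above background on that array only.

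The semaphorins, the largest family with 20 genes, had 8 higher and 2 lower on at least 5 arrays, 1 lower on a single array and 9 never called. Of all genes tested, 8.54% were higher and 4.51% lower on at least 5 arrays. Of the secreted class 3 genes, 5 were higher. Sema3b, a secreted semaphorin that signals through neuropilins, stood at 0.85 on Pax6, 0.68 on Esx1, 0.90 on Crebzf, 0.92 on Pdx1, 0.85 on Sox11 and 0.92 on Zfp451. Sema3b was at -1.97 on Hmga2, -1.61 on Gatad2b, -1.75 on Etv6 and -2.22 on Nfxl1, against -1.71 on EGFP and -1.88 on mock. The folds were 5.56-fold to 6.57-fold with no overlap. Sema3f, which repels axons through neuropilin-2, stood at 0.22 on Pax6, 0.58 on Esx1, 0.52 on Crebzf, 0.61 on Pdx1, 0.62 on Sox11 and 0.62 on Zfp451. Sema3f was at -1.54 on Hmga2, -1.26 on Gatad2b, -1.79 on Etv6 and -1.59 on Nfxl1, against -1.67 on EGFP and -1.45 on mock. The folds of Sema3f were 3.44-fold to 4.54-fold and its sets did not overlap.

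Sema3a, the collapsin that repels sensory axons through neuropilin-1, stood at -1.15 on Pax6, -1.06 on Esx1, -1.10 on Crebzf, -1.03 on Pdx1, -1.12 on Sox11 and -1.11 on Zfp451. Sema3a was at -2.42 on Hmga2, -2.15 on Gatad2b, -1.68 on Etv6 and -2.11 on Nfxl1, against -2.23 on EGFP and -2.31 on mock. Its folds of 2.18-fold to 2.37-fold were close to the threshold. Sema3d, of the same secreted class, stood at -2.57 on Pax6, -2.84 on Esx1, -3.19 on Crebzf, -3.32 on Pdx1, -3.13 on Sox11 and -2.90 on Zfp451, and at -4.49 on Hmga2, -4.97 on Gatad2b, -3.86 on Etv6 and -4.73 on Nfxl1, against -4.87 on EGFP and -4.58 on mock. These 6 were higher by 2.64-fold to 4.45-fold. Sema3c, called on all of the 6 except Pdx1, stood at -3.79 on Pax6, -3.87 on Esx1, -4.01 on Crebzf, -4.26 on Pdx1, -3.85 on Sox11 and -3.82 on Zfp451. Sema3c was at -4.63 on Hmga2, -5.00 on Gatad2b, -4.74 on Etv6 and -5.15 on Nfxl1, against -5.03 on EGFP and -5.29 on mock. The called folds were 2.21-fold to 2.59-fold. After a normexp correction Sema3a, Sema3c and Sema3d were no longer higher on 5 arrays. Sema3c was not after quantile normalization either, and Sema3a and Sema3c were not with all probes of a gene averaged.

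Of the transmembrane semaphorins, Sema4f, Sema4g and Sema6a were higher. Sema4g stood at -1.55 on Pax6, -1.87 on Esx1, -1.60 on Crebzf, -1.61 on Pdx1, -1.50 on Sox11 and -1.55 on Zfp451. Sema4g was at -3.85 on Hmga2, -3.63 on Gatad2b, -3.89 on Etv6 and -3.94 on Nfxl1, against -3.44 on EGFP and -3.67 on mock. The folds of Sema4g were 3.22-fold to 4.16-fold, with all 6 separate from the rest. Sema4f was dim, at -3.90 on Pax6, -3.22 on Esx1, -3.15 on Crebzf, -3.03 on Pdx1, -3.14 on Sox11 and -3.12 on Zfp451. Sema4f was at -6.52 on Hmga2, -6.24 on Gatad2b, -6.46 on Etv6 and -6.46 on Nfxl1, against -6.21 on EGFP and -6.09 on mock. It was higher by 4.76-fold to 8.67-fold. Sema6a, a ligand of class A plexins, stood at -4.70 on Pax6, -3.33 on Esx1, -3.44 on Crebzf, -3.24 on Pdx1, -3.56 on Sox11 and -3.33 on Zfp451. Sema6a was at -5.2 on Etv6 and near its floor on the remaining arrays, so folds were at least 2.77-fold to at least 10.8-fold. Another Sema6a probe, well above background on all 12 arrays, was called on no array, at differences of -0.79 to 0.67, and Sema6a was not higher on 5 arrays after a normexp correction.

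Sema7a, a membrane-anchored semaphorin that promotes axon growth through integrins, was lower on the same 6 arrays and had the widest range of the semaphorins, 4.26. Sema7a stood at -0.75 on Pax6, -0.98 on Esx1, -0.31 on Crebzf, -0.27 on Pdx1, -0.34 on Sox11 and -0.41 on Zfp451. Sema7a was at 2.58 on Hmga2, 2.39 on Gatad2b, 3.28 on Etv6 and 2.64 on Nfxl1, against 2.25 on EGFP and 2.58 on mock. The first 6 levels lay below all others, 6.44-fold to 10.5-fold under the control mean, and Etv6 held the highest level. The probe lies at chr9:57990527-57990586 on mm7. Sema5b was lower on Esx1, Crebzf, Pdx1, Sox11 and Zfp451. Sema5b stood at -1.34 on Pax6, -2.11 on Esx1, -1.79 on Crebzf, -1.74 on Pdx1, -1.78 on Sox11 and -1.74 on Zfp451. Sema5b was at -0.71 on Hmga2, -1.35 on Gatad2b, -1.32 on Etv6 and -1.38 on Nfxl1, against -0.66 on EGFP and -0.69 on mock. Pax6, Gatad2b, Etv6 and Nfxl1 lay between -1.38 and -1.32, below both controls by less than 2-fold, and Hmga2 was level with the controls. The called folds were 2.09-fold to 2.7-fold. Sema5b was not lower on 5 arrays after a normexp correction or with all probes of the gene averaged.

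Sema4c, a receptor-like semaphorin that binds plexin-B2, was lower on Esx1 only, at -1.32, against 0.69 to 1.09 on the remaining factor arrays, 0.72 on EGFP and 0.79 on mock. The difference of 4.23-fold was also seen on a second probe (-1.69 on the log2 scale). It was specific to Esx1, where 0.424% of all genes were specific to that array. The 9 never called by their representing probe, Sema3e, Sema3g, Sema4a, Sema4b, Sema4d, Sema5a, Sema6b, Sema6c and Sema6d, lay between -1.05 and 1.01. Other probes of 3 of them were called: one of Sema3e, well above background on all 12 arrays, was higher on Esx1, Crebzf, Sox11 and Zfp451, at differences of 1.62, 1.38, 1.45 and 1.8. One of Sema6c was lower on Etv6, at -1.17, and one of Sema6d was higher on Nfxl1, at 1.52, the array on which alone it was well above background.

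Among semaphorin receptors the differences were smaller. Plxna3, a receptor for class 3 semaphorins with neuropilins, stood at 0.44 on Pax6, -0.12 on Esx1, 0.36 on Crebzf, 0.44 on Pdx1, 0.41 on Sox11 and 0.33 on Zfp451. Plxna3 was at -1.19 on Hmga2, -1.29 on Gatad2b, -0.97 on Etv6 and -1.35 on Nfxl1, against -1.15 on EGFP and -1.13 on mock. Folds were 2.03-fold to 3-fold, the smallest on Esx1. Plxna2, another class A plexin, stood at 0.65 on Pax6, 1.24 on Esx1, 1.15 on Crebzf, 1.13 on Pdx1, 1.11 on Sox11 and 1.10 on Zfp451. Plxna2 was at 0.11 on Hmga2, -0.03 on Gatad2b, 0.46 on Etv6 and 0.03 on Nfxl1, against 0.13 on EGFP and 0.01 on mock. It was called on Esx1, Crebzf and Pdx1, by 2.09-fold to 2.26-fold, and Sox11 and Zfp451 lay just under 2-fold above EGFP. The remaining plexins, Plxna1, Plxna4, Plxnb1, Plxnb2, Plxnb3 and Plxnc1, lay between -0.73 and 0.53 and were never called. Nrp1 and Nrp2, the co-receptors of class 3 semaphorins, were not called by their representing probes, which lay between -0.37 and 0.5. A second Nrp2 probe was well above background on Etv6 only and was higher there, at a difference of 3.69.

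Specific to 1 array were 3 members, Ephb1, Sema4c and Unc5d, where 3.77% of all genes tested were. On Etv6, Unc5d was specific (0.482% of all genes were so), and Sema6a was the only other member called there. Below the threshold on Etv6, Epha7 had the largest difference, 0.9988. Sema7a, Sema3d, Slit3 and Efnb1 each stood at a difference of 0.86, and Unc5c and Unc5a at 0.79.

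Several genes carry more than 1 probe. For 13 of the 22 genes called on at least 5 arrays there were 26 other probes, of which 18 were well above background on at least 1 array. Of those, 10 were called in the same direction on at least 5 arrays, 2 on 1 to 4 arrays, 6 on none and 0 in the opposite direction. Probes called on none belong to Epha5, Sema6a, Sema5b, Robo1, Robo2 and Slit2; the second Robo1 probe was well above background on 3 arrays, at differences of -0.08 to 0.31. Slit2 had 2 more probes called on 6 arrays and 1, well above background on all 12 arrays, called on none, at -0.55 to 1.11.

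**Figure D4:**
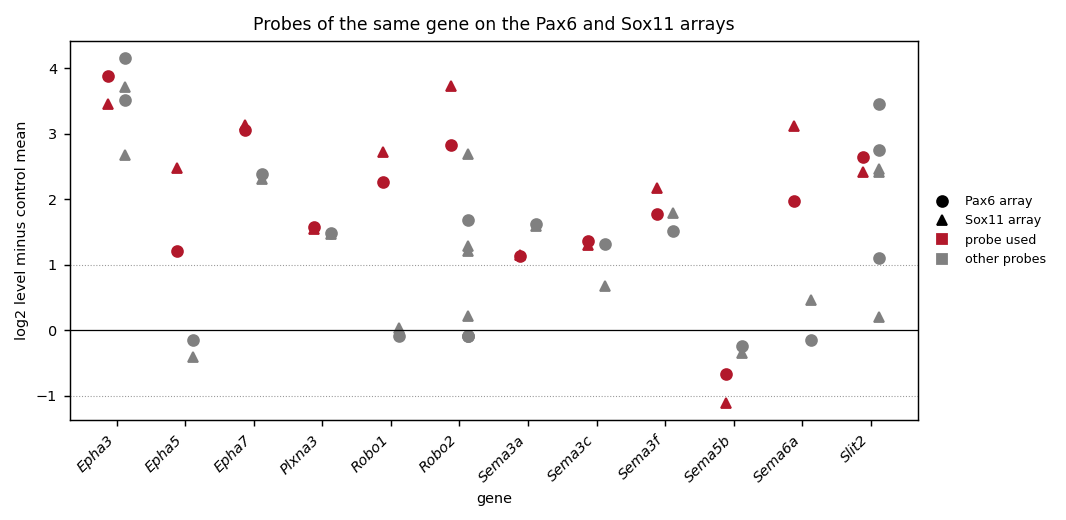
Difference from the mean of EGFP and mock (log2, vertical axis) on the Pax6 array (circles) and the Sox11 array (triangles), for each probe that was well above background on at least 1 array, of the genes on the horizontal axis; red marks the probe used and grey the others. The probes of Epha3, Epha7, Plxna3, Sema3a and Sema3f shown stand together, and those of Epha5, Robo1, Robo2, Sema6a and Slit2 do not.

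Genes that work with these ligands and receptors were counted from 4 lists. Of 8 measured netrin and RGM partners, 2 were higher on at least 5 arrays (Ntng1, a membrane-bound netrin-G, by 5.37-fold to 9.6-fold, and Lrrc4c, its ligand, by at least 2.36-fold to at least 3.78-fold) and 1 was lower (Lrrc4, by 3.06-fold to 6.59-fold). Dcc, the attractive netrin receptor, was not well above background on any array. Of 13 measured adhesion co-receptors, Nrcam was higher by 4.58-fold to 8.17-fold and Chl1 by at least 2.86-fold to at least 3.65-fold, both cell adhesion molecules of the L1 family, and Gpc1, a heparan sulfate proteoglycan, was lower by 2.89-fold to 3.5-fold. Of 30 signalling genes, 3 were higher, namely Dpysl4 by at least 2.8-fold to at least 7.47-fold, Fes by 2.6-fold to 3.94-fold and Chn1 by 2.23-fold to 2.83-fold. The Eph effector Ngef was lower by 5.73-fold to 6.78-fold. Of 17 other cues and their receptors, Wnt5a was higher by at least 5.43-fold to at least 8.32-fold, Boc, a Sonic hedgehog co-receptor, by 3.53-fold to 4.46-fold and Vegfa by 2.24-fold to 2.31-fold, and 0 were lower. For all genes tested, 8.54% were higher and 4.51% lower on at least 5 arrays.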

How the data were processed

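Per the file headers, image analysis used Agilent Feature Extraction 10.7.3.1, which gave each spot a linear intensity after background subtraction. The deposited table of values per sample held the same intensity, to a relative tolerance of 1e-06, for all 45018 features of every array. Deposited flags mark outlier, saturated and well-above-background spots. For later normalisation by the authors the sources used here give nothing. The files place probes on mm7.

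Outlier spots were dropped and the spots of a probe averaged, which gave 41174 probes from 43379 spots. The log2 intensity was set relative to each array's 75th percentile and raised to a floor, the lowest well-above-background level of the array (-6.96 to -6.46). Member probes were named by accession (82) or by symbol (41) through RefSeq (GRCm38.p6). A gene is represented by its probe of highest mean level, for members among the probes of the naming rule. The tests covered 20968 genes flagged on at least 1 array, 16073 of them flagged on all 12. Calls need a 2-fold difference from both EGFP and mock. Array-specific genes differed at least 2-fold, in 1 direction, from each of the other 11 arrays. Markers and pathway genes came from hand-written lists. The members, lists and rules were chosen with earlier results of these data known. The text names members called on at least 5 factor arrays with their values on every array, those called on 1 to 4, the member with the widest range in each family, and list genes called on at least 5. Uncalled members given with a difference were chosen with their values in view. The call rule was tested on simulated data first, and the array-specific rule was not. The number of arrays limits the precision. Scripts used pandas 2.3.3 and numpy 2.4.6, also for quantile normalization, and normexp (offset 50) came from limma 3.58.1 in R 4.3.3. Other alternatives were no floor, a filter for signal on all 12 arrays, averaging a gene's probes, centring within slides and each control alone. No p-value was computed.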

Additional observations from a re-analysis of the deposited data

How the results depend on the processing

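With 1 array for each group, no value has a replicate error, and no array could be left out of a group. No paired analysis was possible because each group held 1 array. Of 144 called differences of members, none changed sign under any alternative tried. After quantile normalization 138 were still called, 103 after a normexp background correction and 44 after centring within slides. With all probes of a gene averaged 117 were, and with no floor 144. Against EGFP alone or mock alone all 144 were still called, which the rule fixes, since a call already needs both controls. The filter for signal on all 12 arrays left 116, all still called, since it changes no level. Under normexp the members called were 14 on Pax6 (22 in the main setting), 18 on Esx1 (23), 18 on Crebzf (25) and 19 on Pdx1 (24). They were 17 on Sox11 (24), 17 on Zfp451 (23), 0 on Gatad2b (1) and 0 on Etv6 (2), and 1 was specific to an array (3). On at least 5 arrays 14 were higher and 1 was lower (19 and 3). Those lost were Epha5, Sema3a, Sema3c, Sema3d and Sema6a, and the lower Sema5b and Unc5a. With no floor, 1 member was called on Hmga2 (0) and 5 were specific to an array. With that filter 0 were called on Gatad2b, 0 on Etv6 and 1 was specific to an array, since fewer genes were tested. Against EGFP alone 5 were called on Etv6. After centring within slides 0 were called on Gatad2b, 1 on Etv6, 0 on Crebzf (25), 1 on Pdx1 (24), 0 on Sox11 (24) and 0 on Zfp451 (23), with 0 higher and 0 lower on at least 5 arrays. Centring removes what the 4 arrays of the third slide share, and for those arrays slide and factor cannot be told apart by it. Against Gatad2b, Etv6 and Nfxl1 of its own slide, a comparison chosen after seeing the data, Esx1 had 18 called members (23). The cause of the other changes was not tested. Genes near background are measured least well.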

Other observations

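The array holds 3 more probes of these families under other names, which the naming rule did not take. A probe of Sema3e, a secreted semaphorin, was higher on Crebzf, Pdx1, Sox11 and Zfp451, at differences of 1.03, 1.12, 1.1 and 1.02, while the probe that represents Sema3e reached 0.88 to 0.96 on those arrays and was not called. A probe of Ntn5, a netrin, was well above background on Pax6, Esx1, Crebzf, Pdx1, Sox11 and Zfp451 only, at -4.75, -4.99, -4.96, -4.96, -4.9 and -4.81. A probe of Nrp2, the co-receptor of Sema3f, was lower on those 6 arrays, at differences of -1.31, -1.46, -1.18, -1.51, -1.42 and -1.17, with levels of -5.35 on EGFP and -5.55 on mock, near the floor, whereas the probe that represents Nrp2 was not called on any array. On the remaining factor arrays this Nrp2 probe lay 0.34 to 0.87 above the control mean. These probes were singled out after their values were seen.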
